A study of Mus musculus with 7 samples.

Results

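The extracellular matrix genes described here are the collagen chains, the laminin chains and 8 further matrix genes, Dcn, Lum, Bgn, Fn1, Fbn1, Sparc, Nid1 and Nid2. They were taken by gene symbol from the table of ileal read counts, which gave 62 genes (43 collagen chains, 11 laminin chains and the 8 named) of 38293 listed. The family was proposed because the measured counts of Dcn and Lamb2 differed between the diets. The diet values below are therefore a description of genes selected on this same contrast. The samples were ileal scrapings, which by the study's methods hold the epithelium and the lamina propria and leave out the muscle layer. RNA was sequenced from 4 mice on the normal cystine diet (normal cys) and 3 on the low cystine diet (low cys). Each mouse gave 1 library. All were male C57BL/6NRJ mice of 8 weeks that were housed individually, spent 1 week on the control diet and then 2 weeks on their own diet. Both were low calcium AIN93G diets with 40% of the energy from fat. The total cystine content was 0.38% or 0.08%, and alanine replaced the missing cystine. All mice were fasted before sacrifice.

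The interstitial matrix of the gut wall is made largely by fibroblasts and smooth muscle cells, which secrete fibrillar collagens, collagen VI and small proteoglycans that bind to the fibrils. Basement membranes are thin sheets under the epithelium and around vessels and muscle cells, built from laminin and collagen IV networks that nidogens link. Laminin is a trimer of an alpha, a beta and a gamma chain, and the trimer that holds the Lama3 and Lamb3 products is a form that epithelial cells themselves make to anchor to this sheet. Many of these proteins are held together by disulfide bonds between cysteines.

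Read counts were scaled to CPM, the share of a library's counts after correction with the TMM factors of edgeR, and levels were compared between genes only as TPM, which also divides by exon length. The 4 normal cys libraries held 19712355 to 22412703 counts and the 3 low cys libraries 14888760 to 21942518. Of the 62 matrix genes, 57 had a count and 35 passed the filter on low counts, so the counts of genes below refer to these 35 and not to the family. Col4a3, Col6a6, Col10a1, Col11a1 and Col19a1 had 0 counts in every library, which allows a level of up to 0.0219 CPM over the 7 libraries. In the 22 other genes that did not pass, no library held more than 15 counts, the mean CPM was higher in low cys for 16 and lower for 6. In 58 of the 62 matrix genes no library held more than 139 counts. Of the 35 tested, 10 reached the filter's count in fewer than 3 normal cys libraries and so needed low cys libraries to pass, Lama4, Nid1, Fbn1 and Col1a1 among them.

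Chains of the epithelial laminin were the most abundant matrix products per length. The mean over the 7 libraries was 58.2 TPM for Lamb3 and 24.1 TPM for Lama3. Outside the epithelial anchoring genes, the highest on the TPM scale were Nid2, which encodes a nidogen, at 3.29, Dcn, the proteoglycan decorin, at 2.72 and Bgn, its relative biglycan, at 2.19. Thus a few epithelial chains stood above a long list of weakly detected matrix genes. Lamb3 and Lama3 together made up 60.8% (low cys replicate 3) to 88.6% (normal cys replicate 4) of the summed TPM of the family. Fibrillar collagen transcripts, which dominate many connective tissues, were low here, with 0.71 TPM for Col3a1 and 0.33 TPM for Col1a2. The Nid2 exons overlap those of 2700060E02Rik on the opposite strand over 7.90% of their length, that gene had 10192 counts in all, and the strand setting of the counting is not given in the sources used here. The Nid2 level is uncertain for this reason, whereas Dcn and Lamb2 share no exon with another gene and no 50-base stretch with another gene's transcripts.

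In the diet comparison, 30 of the 35 tested matrix genes had a higher fitted level in low cys and 5 a lower one, and 51.2% of the 14869 genes tested were higher. The median log2 fold change (low minus normal) was 0.77 in the family and 0.0072 over all genes tested. In edgeR's quasi-likelihood test, 9 matrix genes had an unadjusted p under 0.05, all higher in low cys, where 2.66% of all genes tested were higher at that threshold and 2.83% lower. These genes were Dcn, Bgn, Fbn1, Col3a1, Col6a1, Lamb2, Lamc1, Nid1 and Lama4. At an adjusted p under 0.05, 0 matrix genes and 0% of all genes passed in edgeR. DESeq2 passed 2 matrix genes, where it passed 0.108% of all genes. These 2 were Dcn and Lamb2, the genes that prompted the family. The CPM values of the diets did not overlap for 10 tested matrix genes, all higher in low cys, where 3.32% of all genes tested were higher without overlap and 3.51% lower. These were the same genes without Nid1, and Col16a1 and Col18a1. Since the family was chosen on this contrast, nothing is read from these counts. Without normal cys replicate 1, 17 rather than 9 genes had an unadjusted p under 0.05 and 18 rather than 10 did not overlap.

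**Figure D1:**
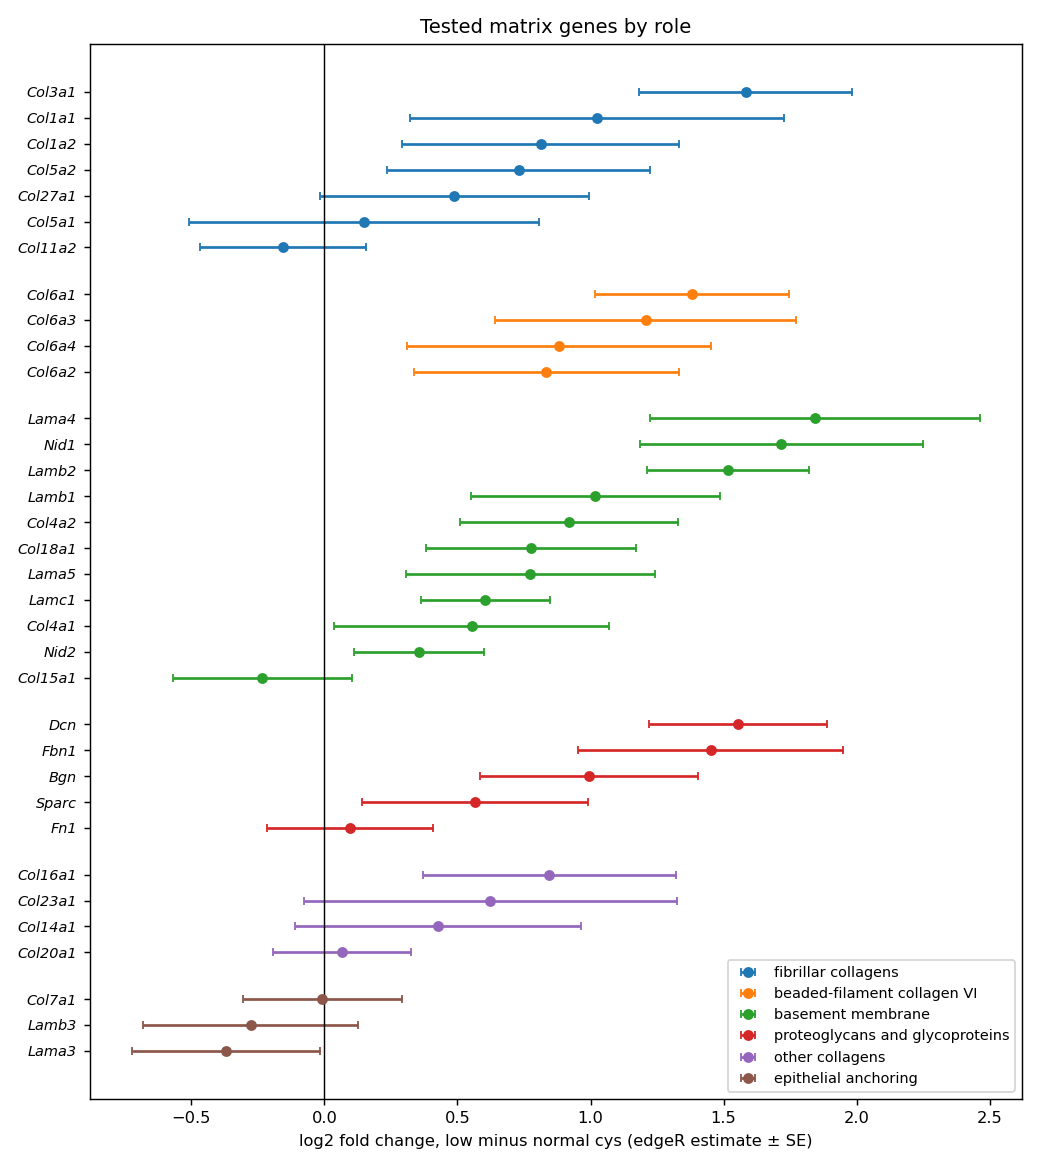
Fitted log2 fold change of 34 of the 35 tested matrix genes (x axis, low minus normal cys, edgeR estimate with bars of 1 SE), grouped and coloured by role (y axis, gene). The groups other than epithelial anchoring lie mostly to the right of 0, while the epithelial anchoring genes lie around 0.

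Among the proteoglycans and glycoproteins, all 5 tested genes of 6 had a positive fold change, with a median of 0.99. Dcn, which binds collagen fibrils and limits their width, gave 1.36, 1.18, 1.73 and 2.20 CPM in normal cys replicates 1 to 4 and 3.84, 6.87 and 3.61 CPM in low cys replicates 1 to 3. Every low cys library was above every normal cys library, and the spread was widest in low cys. The means were 1.62 ± 0.45 CPM (SD, n = 4) and 4.77 ± 1.82 CPM (SD, n = 3), a log2 fold change of 1.55 ± 0.33 (SE). The lowest Dcn count was 26 (95% exact Poisson interval 16.98 to 38.1) and the highest 110 (90.4 to 133), intervals that cover counting error only.

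Bgn gave 4.18, 2.86, 3.63 and 0.95 CPM in normal cys and 5.55, 5.75 and 6.06 CPM in low cys. The low cys libraries lay close together, and normal cys replicate 4 was far below the other 3 normal cys libraries. The log2 fold change was 0.99 ± 0.41. Fbn1, which encodes the microfibril protein fibrillin, gave 0.37, 0.59, 0.42 and 0.14 CPM in normal cys and 0.94, 0.75 and 1.48 CPM in low cys. Its diets did not overlap either, its log2 fold change was 1.45 ± 0.50, and it too needed low cys libraries to pass the filter. Sparc, a collagen-binding glycoprotein, overlapped between the diets at 2.56 ± 1.35 and 3.80 ± 1.32 CPM. Fn1, which encodes fibronectin, was at 1.56 ± 0.19 CPM in normal cys and 1.68 ± 0.45 CPM in low cys, and Lum, the proteoglycan lumican, had 15 counts in all.

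**Figure D2:**
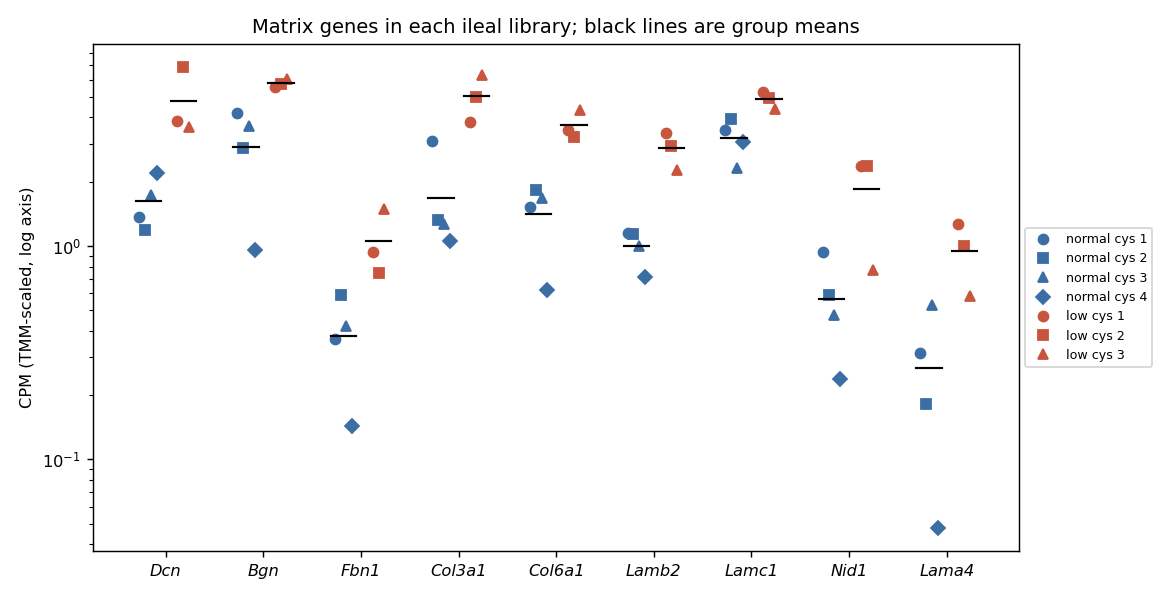
CPM of 9 matrix genes (x axis) in each of the 7 ileal libraries on a log axis (y axis), with blue symbols for the 4 normal cys and red symbols for the 3 low cys libraries and black lines for group means. The 2 colours separate in every gene but Nid1, and normal cys replicate 4 (blue diamond) is the lowest point in 7 of the 9 genes.

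Of the fibrillar collagens, 7 of 11 were tested and 6 had a positive fold change, with a median of 0.73. Col3a1, the chain of collagen III in pliable tissues, gave 3.08, 1.32, 1.26 and 1.05 CPM in normal cys and 3.80, 5.0 and 6.32 CPM in low cys. All low cys libraries were higher, and normal cys replicate 1 was the nearest to them. The log2 fold change was 1.58 ± 0.40. The chains of collagen I overlapped between the diets, with 1.61 ± 0.87 and 2.83 ± 0.88 CPM for Col1a2 and 0.67 ± 0.67 and 1.35 ± 0.089 CPM for Col1a1. Col11a2, a chain best known from cartilage, was the fibrillar gene with a negative value, at 2.43 ± 0.55 CPM in normal cys and 2.18 ± 0.60 CPM in low cys.

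Collagen VI, which forms beaded filaments close to cells, had the highest median fold change of the groups, 1.04 over 4 tested genes of 6, all positive. Col6a1 gave 1.51, 1.82, 1.68 and 0.62 CPM in normal cys and 3.47, 3.25 and 4.32 CPM in low cys. Its diets did not overlap, and its log2 fold change was 1.38 ± 0.36. The other chains of the filament that the naming rule covers, Col6a2 and Col6a4, overlapped between the diets with log2 fold changes of 0.83 ± 0.50 and 0.88 ± 0.57. The ratio of Col6a1 to Col6a2 on the TPM scale was 2.84 ± 0.17 in low cys (SD, n = 3) and 2.38 ± 1.22 in normal cys (SD, n = 4).

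Of the basement membrane genes, 11 of 18 were tested, and 10 had a positive fold change, with a median of 0.78. Lamb2, a laminin beta chain of vessel and muscle basement membranes, gave 1.15, 1.14, 1.00 and 0.72 CPM in normal cys and 3.39, 2.94 and 2.26 CPM in low cys. The 4 normal cys values were close together for a gene of this level, and every low cys library was above them. The log2 fold change was 1.52 ± 0.30, and the counts ran from 15 (8.40 to 24.7) in normal cys replicate 4 to 83 (66.1 to 103) in low cys replicate 1. Lamc1, the gamma chain of most laminins, gave 3.50, 3.91, 2.31 and 3.06 CPM in normal cys and 5.27, 4.94 and 4.38 CPM in low cys. Its diets did not overlap, and its log2 fold change was 0.61 ± 0.24. Lama4, an alpha chain of endothelial and muscle laminins, had 1 to 10 counts per normal cys library and 9 to 31 per low cys library, a log2 fold change of 1.84 ± 0.62, and it passed the filter only through low cys.

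Nid1, which links laminin to collagen IV, overlapped between the diets, since low cys replicate 3 was at 0.77 CPM and normal cys replicate 1 at 0.94 CPM. Its other low cys libraries were at 2.37 CPM and 2.38 CPM, and its log2 fold change was 1.72 ± 0.53. Nid2 was at 7.57 ± 2.09 CPM in normal cys and 9.71 ± 1.67 CPM in low cys. Col4a1 and Col4a2, the chains of the common collagen IV trimer, lie head to head on chromosome 8, and their exons share 22 bases. Col4a1 was at 2.15 ± 1.35 and 3.13 ± 1.07 CPM, and the ratio of Col4a1 to Col4a2 on the TPM scale ran from 0.68 to 2.13 over the libraries. Col18a1, a basement membrane collagen, did not overlap, at 1.49 ± 0.66 and 2.56 ± 0.47 CPM. Col15a1 had the only negative fold change among the tested genes of this group, -0.23 ± 0.34.

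The epithelial anchoring genes had a median log2 fold change of -0.14 over 4 tested genes of 5. Lamb3 gave 87.5, 138, 83.1 and 269 CPM in normal cys and 128, 137 and 92.8 CPM in low cys. Lama3 gave 102, 81.9, 152 and 254 CPM in normal cys and 96.8, 130 and 115 CPM in low cys. For both chains normal cys replicate 4 was the highest library, and the other 3 normal cys libraries overlapped with low cys. The log2 fold changes were -0.28 ± 0.40 for Lamb3 and -0.37 ± 0.35 for Lama3. Without normal cys replicate 4, those of Lamb3 and Lama3 were 0.21 and 0.03. On the TPM scale the ratio of Lamb3 to Lama3 ran from 1.30 in normal cys replicate 3 to 4.00 in normal cys replicate 2, and was 1.91 to 3.13 in low cys. Col7a1, the anchoring fibril collagen, was at 3.45 ± 1.06 and 3.43 ± 0.55 CPM.

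**Figure D3:**
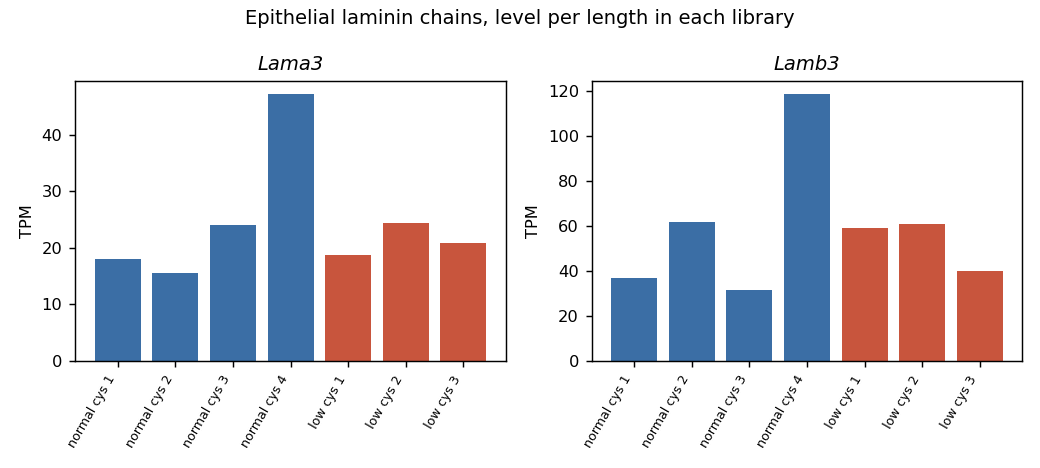
TPM of Lama3 and Lamb3, chains of the epithelial laminin (y axis, from 0, a scale per panel) in each library (x axis), with blue bars for normal cys and red bars for low cys. Normal cys replicate 4 has the highest bar for Lama3 (47.1 TPM) and for Lamb3 (118 TPM).

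Of the other collagens, 4 of 16 were tested, and their median log2 fold change was 0.53. Col16a1, a fibril-associated collagen, did not overlap, at 0.76 ± 0.38 and 1.38 ± 0.17 CPM. Col14a1, which also associates with fibrils, overlapped between the diets with 0.43 ± 0.54 on the log2 scale. Col20a1 was the most abundant of this group per length, at 2.08 TPM, and nearly level between the diets at 4.55 ± 0.55 and 4.76 ± 1.42 CPM. Col13a1, a transmembrane collagen, did not overlap but did not pass the filter, with 24 counts in all.

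The normal cys libraries differed among themselves in the same genes. Among the 31 tested genes outside the epithelial anchoring group, normal cys replicate 4 was the lowest of the 4 normal cys libraries in 24, and normal cys replicate 1 was the highest in 17. The summed CPM of all 57 genes outside the epithelial group was 69.2, 57.8, 52.8 and 33.8 in normal cys and 82.5, 93.7 and 89.3 in low cys. The diets did not overlap in this sum, and its low to normal ratio was 1.66. By role the ratio was 2.15 for collagen VI, 1.89 for the proteoglycans and glycoproteins, 1.67 for the fibrillar collagens, 1.59 for the basement membrane, 1.28 for the other collagens and 0.82 for the epithelial anchoring genes. Outside the epithelial anchoring group, the coefficient of variation among the normal cys libraries ran from 12.2% for Col20a1 to 99.5% for Col1a1.

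Markers of other cells moved beside these sums, and in bulk samples a different number of cells and a different amount of RNA per cell cannot be told apart. The 10 smooth muscle markers summed to 8.46 to 20.7 CPM in normal cys and 13.8 to 50.3 CPM in low cys, and all 7 that were tested had positive fold changes. Per library the smooth muscle sums were 20.7, 18.8, 13.6 and 8.46 CPM in normal cys replicates 1 to 4. In low cys replicates 1 to 3 they were 13.8, 50.3 and 26.9 CPM. Within each diet the libraries ranked as in the summed CPM of the 57 matrix genes outside the epithelial group. Across the diets the order differed, since low cys replicate 1 was below normal cys replicates 1 and 2 in smooth muscle but not in the matrix sum. Dcn did not rank like the matrix sum within normal cys, where replicate 4 was the highest, at 2.20 CPM. The 12 fibroblast markers summed to 349 to 454 CPM in normal cys and 382 to 395 CPM in low cys, with 5 positive and 3 negative fold changes, a low to normal ratio of 0.97 and Foxl1 at 0. Lrp1 alone was at 372 CPM in normal cys, and without it the sums were 26.8 to 33.0 and 29.6 to 35.9 CPM, a ratio of 1.13. The leukocyte markers summed to 215, 193, 188 and 112 CPM in normal cys replicates 1 to 4 and to 242, 326 and 292 CPM in low cys. All 7 libraries ranked in this sum as in the matrix sum, which was not so for the other marker lists. Of the 9 leukocyte markers 6 had a positive and 3 a negative fold change, with a median of 0.23. The blood endothelial markers summed to 9.95 to 11.1 and 11.1 to 12.1 CPM, and the lymphatic markers to 6.15 to 9.46 and 9.81 to 13.7 CPM. The epithelial markers, which were abundant in every library, were lower in low cys on the TMM-scaled CPM, at 13010 to 15280 CPM against 16128 to 17309 CPM. Summed as TPM they overlapped, at 12289 to 13504 in low cys and 12393 to 15596 in normal cys. Scaled to library size alone, their low to normal ratio was 0.94, against 0.86 with TMM. The part of these cell types in the matrix values was not tested. The summed ranges overlapped for pericytes (3.29 to 11.2 and 4.16 to 9.56 CPM), enteric glia and neurons (6.40 to 11.6 and 6.25 to 11.9 CPM, Sox10 at 0) and adipocytes (38.9 to 72.9 and 29.0 to 47.6 CPM). The pancreatic acinar list was at 4.49 to 5.41 and 3.71 to 4.25 CPM, with Cpb1, Prss2 and Pnlip at 0.

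**Figure D4:**
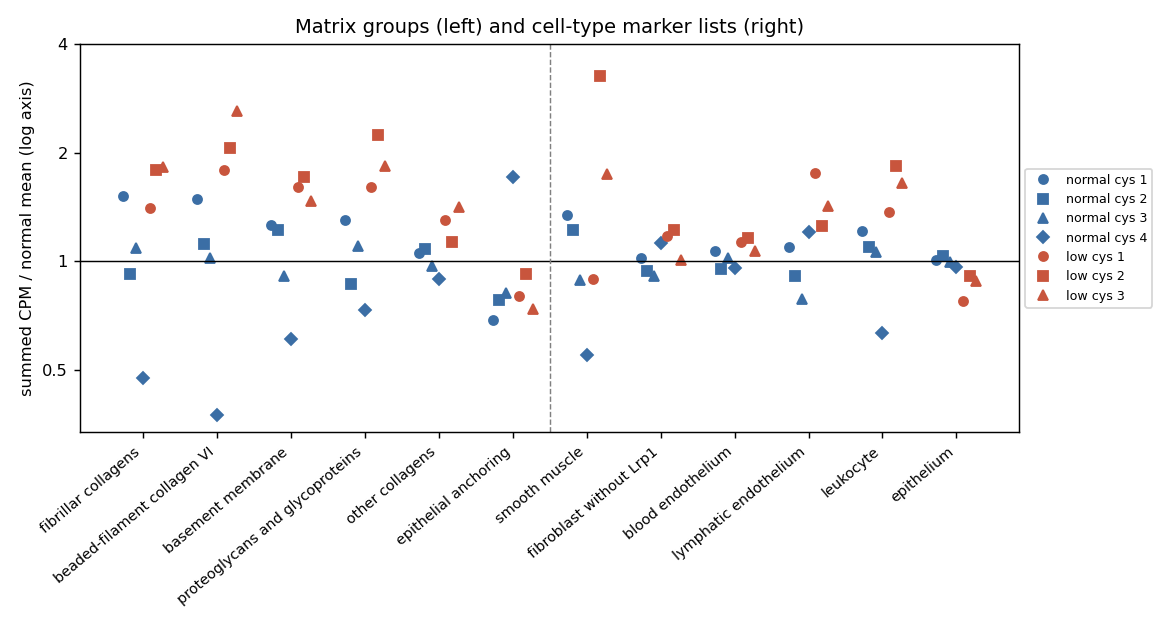
Summed CPM of each matrix group (left of the dashed line) and of each cell type marker list (right), divided by the normal cys mean (y axis, log scale), per library. The red low cys symbols lie at or above the blue ones in the matrix groups other than epithelial anchoring, except in the fibrillar collagens. There normal cys replicate 1 lies above low cys replicate 1. Every marker list shown except epithelium also reaches its highest value in low cys.

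The matrix family depends on enzymes, receptors and further glycoproteins, of which 97 were listed by known role and 68 were tested. In edgeR, 3 had an unadjusted p under 0.05 and were higher in low cys, 3 were lower, and 0 had an adjusted p under 0.05, beside 2.66% higher and 2.83% lower over all genes tested. In all, 42 were positive and 26 negative, where 51.2% of all genes tested were positive. The median log2 fold change was 0.22, and 16 rather than 6 passed the unadjusted threshold without normal cys replicate 1. Serpinh1, the collagen chaperone of the endoplasmic reticulum, was at 1.35 ± 0.89 CPM in normal cys and 3.30 ± 0.37 CPM in low cys, without overlap. It was the only gene at an unadjusted p under 0.05 among 12 tested for collagen folding and crosslinking, where 7 were positive and 5 negative. Ltbp1, which stores latent TGF-beta in the matrix, was at 0.43 ± 0.28 and 1.17 ± 0.22 CPM, and 14 of the 16 tested other matrix glycoproteins were positive. Agrn, the basement membrane proteoglycan agrin, went the other way from most of that list, at 234 ± 35.9 CPM in normal cys and 160.4 ± 14.2 CPM in low cys, a log2 fold change of -0.55 ± 0.15. Of 18 tested matrix receptors, 9 were positive and 9 negative, and the epithelial integrin subunit Itgb6 was lower without overlap, at 47.4 ± 9.33 and 30.1 ± 2.53 CPM. Of 11 tested proteases and inhibitors, 9 were positive, with Mmp10, a stromelysin, at 0.47 ± 0.35 and 1.57 ± 0.95 CPM. Of 11 tested TGF-beta signalling genes, 8 were negative, but the median log2 fold change of this list was near 0, at -0.026. Smad7, an inhibitor of the pathway, was at 73.0 ± 20.1 and 46.2 ± 10.2 CPM. These 6 genes each had an adjusted p of 0.794 in edgeR.

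The coding sequences, which the choice of genes did not use, differed in how much cysteine they encode. Cysteine codons made up a median of 1.17% of codons (0.147% to 2.14%) in the 43 collagens and 5.82% (2.59% to 6.98%) in the 11 laminins. Fbn1 had the highest share, 361 of 2873 codons or 12.6%, while Dcn had 6 of 354 codons or 1.70%. In Lamb2 it was 125 of 1799 codons or 6.95%, and in Col3a1 it was 1.50%, the highest of the fibrillar collagens. No test was made of this share against the fold changes. The longest unbroken series of residue triplets that each hold glycine at the same place, the repeat of the collagen triple helix, was 344 triplets in Col3a1, 338 in Col1a1, 87 in Col6a1 and 40 in Col4a1.

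Promoters of 44 matrix genes, 48 windows of 250 bases before the start site, were in the RefSeq table (GRCm38.p6). Those of Col3a1 (chr1:45311288-45311537, plus strand) and Bgn (chrX:73483351-73483600, plus strand) are shown as a fibrillar collagen and a proteoglycan whose diets did not overlap and whose windows hold different elements. Capitals mark the TATA letters TATAAA and the GC box letters GGGCGG on either strand.

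Col3a1: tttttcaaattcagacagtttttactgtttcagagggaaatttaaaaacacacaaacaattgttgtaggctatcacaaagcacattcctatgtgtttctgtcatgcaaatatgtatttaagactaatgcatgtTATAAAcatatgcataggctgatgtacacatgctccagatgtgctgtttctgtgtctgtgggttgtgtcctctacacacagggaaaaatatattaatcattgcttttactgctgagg

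Bgn: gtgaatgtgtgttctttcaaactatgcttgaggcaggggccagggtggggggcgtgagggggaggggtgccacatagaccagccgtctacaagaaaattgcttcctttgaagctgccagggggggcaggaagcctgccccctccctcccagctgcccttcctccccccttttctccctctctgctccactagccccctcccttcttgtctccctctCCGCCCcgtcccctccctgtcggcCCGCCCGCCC

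The Col3a1 window held 1 TATA match and 0 GC boxes, and the Bgn window held 3 GC boxes, of which 2 overlap each other, and 0 TATA matches. TATAAA was found in 5 of the 48 matrix windows and in 12.4% of 32851 promoters of the same length, and GGGCGG in 27 of the 48 and in 32.7%. The letters CCAAT were found in 15 of the 48 and in 33.8%, and the AP-1 letters TGANTCA, where N is any base, in 1 of the 48, that of Col6a1, and in 6.75%. These matches are a description of the letters and not of binding.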

How the data were processed

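Ileal poly(A) RNA libraries were made with a stranded kit. Per the labels and the study's methods, the authors checked reads with FastQC (0.11.8), trimmed them with Trim Galore (0.6.5), aligned them to GRCm38 with STAR and counted them on exons with featureCounts. The deposited values are raw counts per gene, without normalization. Strand setting and handling of multi-mapping reads are not given in the sources used here.

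Here genes were kept with edgeR's filterByExpr (minimum count 10, minimum total 15), which left 14869, scaled by TMM and tested with edgeR's robust quasi-likelihood test (edgeR 4.0.16, R 4.3.3) with Benjamini-Hochberg adjustment over all of them. Expression varied between mice by 25.5% (biological coefficient of variation). DESeq2 (1.42.0), limma-voom (limma 3.58.1), other scalings, other filters, a non-robust fit and leaving out each library were alternatives, and the fits were tested on simulated data. TPM used the exon lengths given with the deposited counts. Coding sequences and shared stretches were taken from GENCODE transcripts. The labels give no replicate pairs and no batch.

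The members and lists were chosen with earlier results of these data known. Named genes are Dcn, Lamb2, the 3 members with the highest TPM in each role, members with an unadjusted p under 0.05, members whose diets do not overlap, and up to 3 pathway genes per list with an unadjusted p under 0.05. Other members named beside them, and the marker list without Lrp1, were picked with their values in view. The study tested the diets with DESeq2, which was an alternative here. The values of 1 tested member are not reported here.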

Additional observations from a re-analysis of the deposited data

How the results depend on the processing

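The median log2 fold change of the tested matrix genes stayed positive under all 14 alternatives (0.52 to 0.98). By DESeq2, 2 matrix genes had an adjusted p under 0.05, and by the other 13 alternatives 0. With at least 10 counts in every library, 22 matrix genes were tested and 18 had a positive value. Nid1, Lama4 and Fbn1, which needed low cys libraries to pass the main filter, were not among those tested. The matrix genes with an unadjusted p under 0.05 numbered 6 to 17 when 1 library was left out, those without overlap 10 to 18, and the pathway genes 4 to 16, each highest without normal cys replicate 1. The pathway genes numbered 11 by limma-voom, 10 with library size only and 12 with no filter on low counts. Scaling to library size alone moved the median of all genes to 0.15 and that of the matrix genes to 0.90. Among the genes named by the rule and the summed ratios, the values that changed sign when 1 library was left out were those of Col20a1 (-0.068 to 0.32), Col11a2 (-0.33 to 0.032), Lama3 (-0.55 to 0.028), Lamb3 (-0.47 to 0.21) and the summed epithelial anchoring ratio (0.74 to 1.08). For Col20a1 these were -0.011, -0.068 and -0.043 without normal cys replicate 1, low cys replicate 1 and low cys replicate 3. The family was chosen on this contrast because of Dcn and Lamb2, so the p-values that follow are a description and give no support. Of the 9 genes with an unadjusted p under 0.05 in edgeR, Dcn, Lamb2, Col3a1, Col6a1 and Nid1 stayed under it without any 1 library. Leaving out 1 library raised it to between 0.0531 and 0.0999 for Lamc1 (any library but normal cys replicates 1 and 2), to between 0.0683 and 0.0858 for Bgn (normal cys replicate 2 or any low cys library), to 0.0723 for Lama4 (low cys replicate 1) and to 0.0882 for Fbn1 (low cys replicate 3), with log2 fold changes that stayed positive. Without normal cys replicate 1 it fell below for Col18a1 (0.0328), Col6a2 (0.0478) and Sparc (0.0380). The cause was not tested. No paired analysis was possible because the labels give no shared replicate numbers.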
